A study of Mus musculus with 6 samples.

Results

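Kinesins are motor proteins that use ATP to move along, or to take apart, microtubules. One set of them builds and works the mitotic spindle and the cleavage furrow of dividing cells, and another carries vesicles, organelles and ciliary cargo in cells at rest. In liver, dividing hepatocytes of the young animal use the first set, whereas mature hepatocytes rely on the second for the traffic of organelles and secretory vesicles. All genes whose symbol in the platform annotation begins with Kif and a digit were taken, which gave 37 of the 18193 genes with a probe set of their own symbol. The brightest of a gene's probe sets over the 6 arrays stood for it. By their textbook roles 12 are mitotic kinesins, 13 are transport kinesins and 12 have other roles. The classes were set with earlier results of these data known. Kif2a, which acts in spindles and in resting cells, was placed among the other roles, and its difference was 0.00. The counts of mitotic members below therefore leave Kif2a out.

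The mice lacked the acyl-CoA binding protein ACBP (genotype ACBP-/-, called KO) or were wild type (+/+, called WT), all of strain C57BL/6JBomTac, 21 days old and in the fed state. Each of the 6 arrays held liver RNA pooled from 5 animals. The 15 mice of a genotype were thus divided over 3 pools, and an error given here describes how pools, not single mice, differ. The labels do not say how the ACBP gene was inactivated or in which cells. Values are log2 signals of the MAS5 algorithm, which also calls each probe set Present, Marginal or Absent on each array.

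Dbi, the gene of ACBP, read 5.37, 5.32 and 5.15 in KO pools 1 to 3, against 15.94, 15.74 and 15.77 in WT pools 1 to 3. KO pool 1 stood apart at the Y-linked gene Eif2s3y, chosen after its values were seen, with 1.16 there and 6.97 to 8.69 in the other 5 pools. Between 48.4% and 51.1% of probe sets were called Present on an array. The actin control gave a ratio of 3' over 5' signal of 2.34 to 2.35 in KO pools and 2.18 to 2.19 in WT pools, and the Gapdh control gave 0.906 to 0.909 in KO pools and 0.874 to 0.916 in WT pools. The part of RNA quality in the results below was not tested.

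Promoters of the members were compared because many genes of the late cell cycle carry a short element, the cell cycle genes homology region (CHR), near their start, often downstream of CCAAT boxes bound by NF-Y. The windows below, from RefSeq on build GRCm38.p6, run from 250 bases before to 50 bases after the annotated start, 5′ to 3′ on the gene's strand. They show 4 of the 5 kinesin genes that fell in KO liver, and, for contrast, the transport kinesin Kif1c. The windows are chr19:37376132-37376431 on the plus strand for Kif11, chr19:34922108-34922407 on the plus strand for Kif20b, chr7:127042371-127042670 on the minus strand for Kif22, chr9:61946750-61947049 on the minus strand for Kif23 and chr11:70700298-70700597 on the plus strand for Kif1c. Capitals mark the letters TTTGAA or TTCGAA (CHR) and CCAAT, on either strand, so that they also appear as TTCAAA and ATTGG.
Kif11: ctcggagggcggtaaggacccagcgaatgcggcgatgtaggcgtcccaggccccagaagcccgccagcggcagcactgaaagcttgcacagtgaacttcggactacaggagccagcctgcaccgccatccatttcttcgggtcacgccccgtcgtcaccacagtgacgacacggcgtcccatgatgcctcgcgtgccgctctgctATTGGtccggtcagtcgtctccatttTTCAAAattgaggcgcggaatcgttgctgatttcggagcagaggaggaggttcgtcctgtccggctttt
Kif20b: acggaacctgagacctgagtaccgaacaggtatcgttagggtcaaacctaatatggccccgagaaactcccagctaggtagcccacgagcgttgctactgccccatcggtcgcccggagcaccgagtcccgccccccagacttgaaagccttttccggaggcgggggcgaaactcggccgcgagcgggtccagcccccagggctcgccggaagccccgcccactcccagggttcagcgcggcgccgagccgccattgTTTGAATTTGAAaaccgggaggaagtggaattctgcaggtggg
Kif22: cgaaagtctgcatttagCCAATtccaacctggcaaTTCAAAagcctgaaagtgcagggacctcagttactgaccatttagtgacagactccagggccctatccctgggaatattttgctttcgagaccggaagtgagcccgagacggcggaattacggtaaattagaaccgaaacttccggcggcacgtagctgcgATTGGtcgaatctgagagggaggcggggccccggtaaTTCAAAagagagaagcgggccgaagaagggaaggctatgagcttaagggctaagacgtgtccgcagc
Kif23: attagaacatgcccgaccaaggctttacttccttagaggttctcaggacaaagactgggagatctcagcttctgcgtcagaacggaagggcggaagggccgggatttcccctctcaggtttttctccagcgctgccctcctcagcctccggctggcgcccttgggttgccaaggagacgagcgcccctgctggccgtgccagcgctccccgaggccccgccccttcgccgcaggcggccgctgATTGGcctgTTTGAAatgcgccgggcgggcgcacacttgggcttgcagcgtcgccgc
Kif1c: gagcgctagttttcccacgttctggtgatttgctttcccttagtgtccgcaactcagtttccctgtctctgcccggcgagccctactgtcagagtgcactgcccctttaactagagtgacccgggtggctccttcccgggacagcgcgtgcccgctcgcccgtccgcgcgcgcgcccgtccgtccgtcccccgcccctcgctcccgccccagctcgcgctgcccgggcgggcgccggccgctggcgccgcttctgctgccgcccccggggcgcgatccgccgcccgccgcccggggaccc

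CHR letters were in all 4 of the windows of genes that fell, at 19 bases before the start in Kif11, at bases 8 and 14 after it in Kif20b, at 215 and 17 before it in Kif22 and at base 3 in Kif23. CCAAT was in 3 of these 4, all but Kif20b, and lay before the CHR nearest the start. No CHR match overlapped a CCAAT match in the windows shown, and TTCGAA reads the same on both strands. The Kif1c window held neither.

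Of the mitotic kinesins, 11 had a window, and 9 of the 11 windows held CHR letters (81.8%), against 1 of 12 windows of transport kinesins (8.33%), 3 of 12 windows of other kinesins (25.0%) and 19.2% of all 32851 windows in the table. CCAAT was in 7 of 11 mitotic windows (63.6%), 4 of 12 transport windows (33.3%), 4 of 12 windows of other kinesins (33.3%) and 37.4% of all windows. The 12 transport windows belong to 10 genes, without Kif5a, Kif5b and Kif13b, and the 12 windows of other kinesins also belong to 10 genes. Some genes have overlapping windows, so the CCAAT letters of Kif1b are counted in 2 of them. The transport genes with CCAAT were Kif1b, Kif3a and Kif3b. Both were in 6 mitotic windows (54.5%), 0 transport windows, 3 windows of other kinesins (25.0%), those of Kif24, Kif26b and Kif27, and 7.52% of all windows. Within 30 bases of the start, a distance chosen after the positions were seen, CHR letters stood in 7 mitotic windows (63.6%), 0 transport windows, 2 windows of other kinesins (16.7%), those of Kif24 and Kif26b, and 3.40% of all windows. The 7 mitotic genes are Kif4, Kif11, Kif15, Kif18b, Kif20b, Kif22 and Kif23. The matches are descriptions of letters, with no test, and no binding was measured.

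**Figure D1:**
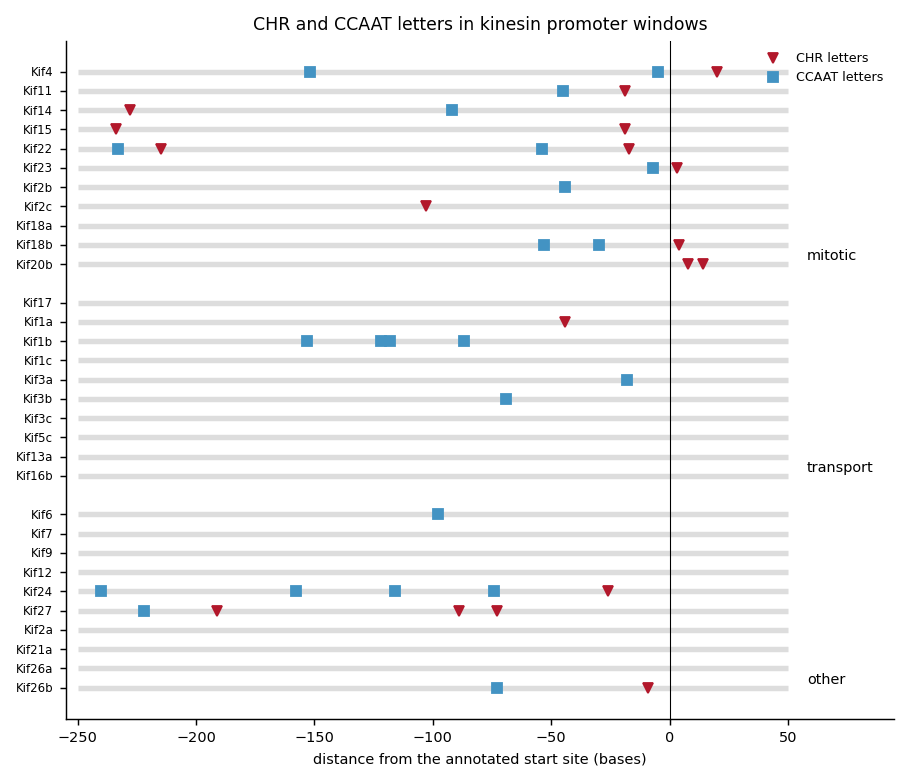
Positions of CHR letters (red triangles) and CCAAT letters (blue squares) in the promoter windows of the kinesin genes that had one, in bases from the annotated start (0), with a grey bar for the window. Red triangles lie within 30 bases of the start in 7 of 11 mitotic genes, 0 of 10 transport genes and 2 of 10 genes with other roles.

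Mitotic kinesins were the members that fell in KO liver. Of 37 members, 21 had a Present call on 3 or more arrays and could be tested. Of these 21, 5 fell and 0 rose at an adjusted p below 0.05 over 22482 probe sets (limma, Benjamini-Hochberg), and all 5 were mitotic. Taken 1 probe set per gene, 3.87% of 10580 tested genes fell and 3.38% rose. The 5 were 5 of 8 tested mitotic kinesins, while 0 of 9 tested transport kinesins and 0 of 4 tested other kinesins were called. At an unadjusted p below 0.05 there were 7 mitotic, 1 transport and 0 other kinesins. One of these mitotic genes, Kif18b, was Present in WT pools alone. The share of all tested genes at that unadjusted p was not counted, so these numbers have no background beside them. In whole liver, fewer cells of a type and less RNA per cell cannot be told apart.

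**Figure D2:**
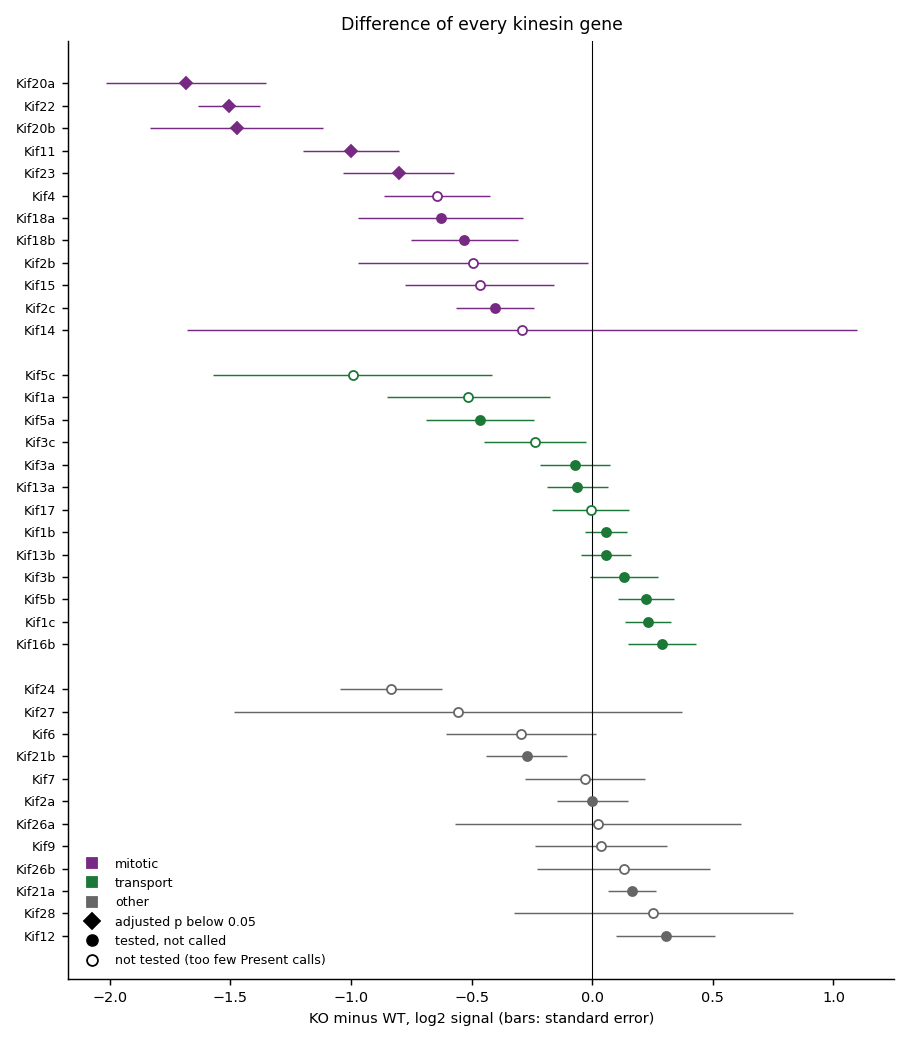
Difference of KO and WT means (log2 signal) for all 37 kinesin genes by class, with bars for the standard error of the limma fit (for open points, of the fit without a detection filter). The 5 genes that fell (diamonds) are mitotic and lie between -1.68 and -0.80, and the tested transport kinesins lie between -0.46 and 0.29.

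The median log2 difference was -0.90 over the tested mitotic kinesins and 0.06 over the tested transport kinesins, a gap of -0.96, beside 0.02 over all tested genes. The detection filter touches these values, because it left out 4 mitotic and 4 transport members. It also let Kif18b pass through the WT pools alone. For Kif20a and Kif20b, Present on 1 and 2 KO arrays, the 3 WT calls were enough by themselves. Without the filter the medians were -0.64 over all 12 mitotic members and -0.01 over all 13 transport members, beside -0.01 over all 18193 genes. The KO mean was below the WT mean in 12 of 12 mitotic members, 7 of 13 transport members and 5 of 12 other members, and in 51.7% of all genes. The 3 KO pools all lay below the 3 WT pools in 8 of the 12 mitotic members, in 0 transport members and in 1 other member, beside 10.4% of all genes. For any single gene the smallest p of an exact two-sided permutation test is 0.1 with these 6 pools.

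Detection calls varied between pools. Of the 12 mitotic kinesins, 7, 5 and 2 were called Present in KO pools 1, 2 and 3, against 7, 8 and 7 in WT pools 1, 2 and 3. KO pool 1 thus had as many as 2 of the WT pools, and KO pool 3 had the fewest. Of the 13 transport kinesins, 8, 8 and 9 were called Present in the KO pools and 10, 9 and 9 in the WT pools.

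Kif22 encodes a chromokinesin, which binds chromosome arms and pushes them toward the spindle equator. It read 7.47, 7.27 and 6.93 in KO pools 1 to 3, against 8.84, 8.81 and 8.54 in WT pools 1 to 3. The groups lay more than 1 log2 unit apart, and all 6 arrays were called Present. It fell by 1.51 (SE 0.13, n = 3 pools per genotype, adjusted p = 6.01e-07), which is 2.84-fold on the linear scale. Its probe set carries the suffix _x_at, which marks probes that may bind related transcripts, and a pseudogene, Kif22-ps, is annotated. A second tested probe set of Kif22 fell by 1.55 (SE 0.32, adjusted p = 0.00586) and was Present on 1 of 3 KO and 3 of 3 WT arrays. It carries the suffix _s_at, which also marks probes shared by related transcripts. The remaining probe set of Kif22, with the plain suffix _at, was Absent on all 6 arrays and not tested. It differed by -0.88 with no overlap (adjusted p = 0.211 in the fit without the filter).

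Kif20a and Kif20b encode kinesins of the central spindle, needed for the final separation of daughter cells. Kif20a read 4.54, 3.41 and 2.82 in KO pools 1 to 3, where pool 1 alone was called Present, against 5.50, 5.06 and 5.26 in WT pools, all Present. It fell by 1.68 (SE 0.33, adjusted p = 0.00476). The KO pools were spread widely, and each stayed below every WT pool. Kif20b read 4.45, 4.56 and 2.68 in KO pools, with pool 3 called Absent, against 5.47, 5.43 and 5.21 in WT pools. It fell by 1.47 (SE 0.36, adjusted p = 0.0206). KO pool 3 sets much of the size, since without it the difference was -0.86 (adjusted p = 0.00794). Without WT pool 1 the adjusted p of Kif20b was 0.0770.

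Kif11 encodes the motor that slides spindle microtubules apart and so separates the poles. It read 4.01, 4.31 and 4.26 in KO pools 1 to 3, against 5.35, 5.18 and 5.05 in WT pools, Present on all 6 arrays. The spread within each group was small beside the gap between them. It fell by 0.999 on the log2 scale (SE 0.20, adjusted p = 0.00497). Its second tested probe set differed by -0.72 (SE 0.23, adjusted p = 0.0875), also with every KO pool below every WT pool. Without WT pool 1 the adjusted p of the brightest probe set was 0.0540.

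Kif23 encodes the motor subunit of centralspindlin, the complex that positions the cleavage furrow. It read 4.39, 4.46 and 3.83 in KO pools 1 to 3, against 5.32, 4.89 and 4.87 in WT pools. It was called Present on 1 KO array and 2 WT arrays, and the groups did not overlap. The fall of 0.80 (SE 0.23, adjusted p = 0.0497) lay at the threshold. The call was lost without any single pool except KO pool 1, with adjusted p of 0.0516 without KO pool 2, 0.0743 without KO pool 3, 0.292 without WT pool 1, 0.0784 without WT pool 2 and 0.0858 without WT pool 3.

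**Figure D3:**
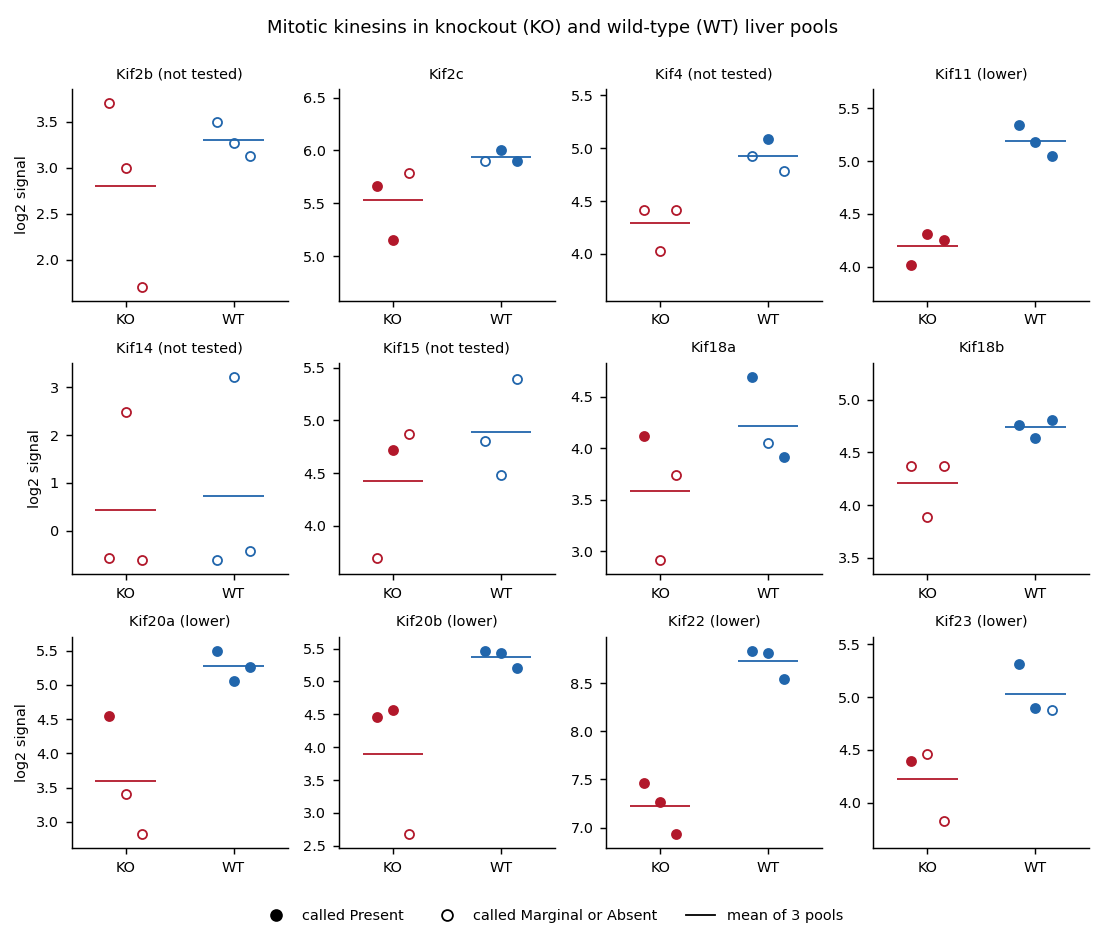
Log2 signal of the 12 mitotic kinesins in each pool of KO (red, left) and WT (blue, right) liver, pools 1 to 3 from left to right, with a line for the mean and filled points for Present calls. Each panel has its own axis, at least 2 log2 units tall, and in Kif11, Kif20a, Kif20b, Kif22 and Kif23 all KO pools lie below all WT pools.

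The other 3 tested mitotic kinesins did not pass. Kif2c, a kinesin that removes tubulin from microtubule ends at centromeres, read 5.67, 5.15 and 5.78 in KO pools and 5.90, 6.01 and 5.90 in WT pools (difference -0.40, SE 0.16, adjusted p = 0.194). Its groups did not overlap, and without KO pool 3 the adjusted p was 0.0471, with a difference of -0.53. This probe set was called Absent in KO pool 3 and Marginal in WT pool 1. Another tested probe set of Kif2c differed by -0.74 (SE 0.23, adjusted p = 0.0658) with no overlap. A further tested probe set differed by -0.33 (SE 0.25, adjusted p = 0.549) with overlap. Kif18b, which limits the length of astral microtubules, read 4.37, 3.88 and 4.37 in KO pools, all called Absent, and 4.76, 4.64 and 4.81 in WT pools, all called Present. The WT mean was 1.44-fold the KO mean on the linear scale (adjusted p = 0.217), a ratio that rests on KO signals called Absent. The lowest Present signal of each KO array lay below these KO signals, so it set no bound on the ratio. Kif18a, which damps the movement of chromosomes at the spindle equator, read 4.11, 2.91 and 3.74 in KO pools and 4.69, 4.05 and 3.91 in WT pools, with overlapping groups (adjusted p = 0.365).

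The remaining 4 mitotic kinesins were Present on too few arrays to be tested. Kif4, a chromokinesin that works with Prc1 at the midzone, read 4.42, 4.03 and 4.41 in KO pools and 4.92, 5.08 and 4.78 in WT pools, and was called Present in WT pool 2 alone. Its groups did not overlap, and without the filter its adjusted p was 0.208. A pseudogene of it, Kif4-ps, is annotated. Kif2b and Kif14 were Present on 0 arrays and Kif15, which backs up Kif11, on 1, and their KO and WT values overlapped.

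Transport kinesins gave no call in either direction. Kif5b, the heavy chain of conventional kinesin in most tissues, read 9.07, 9.02 and 8.65 in KO pools 1 to 3, against 8.51, 8.86 and 8.69 in WT pools. The groups overlapped, and the difference was 0.22 (SE 0.12, adjusted p = 0.333). Without KO pool 3 it was 0.35, with an adjusted p of 0.0277. All 6 of its probe sets were tested, with differences from -0.15 to 0.27 and 0 calls.

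Kif1c, which moves vesicles and mRNA, was the one transport kinesin whose groups stood apart. It read 9.69, 9.49 and 9.52 in KO pools, against 9.12, 9.44 and 9.45 in WT pools (difference 0.23, SE 0.10, adjusted p = 0.210). The low value of WT pool 1 weighs in this, and without that pool the difference was 0.12 (adjusted p = 0.687). Of all tested genes, 13.1% had every KO pool above every WT pool. Kif1b, a carrier of mitochondria and synaptic vesicle precursors, read 9.78, 9.57 and 9.51 in KO pools and 9.64, 9.54 and 9.51 in WT pools (difference 0.06, SE 0.09, adjusted p = 0.799). Its 7 probe sets were all tested, with differences from -0.40 to 0.15 and 0 calls.

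Kif3a and Kif3b encode the motor pair of kinesin-2, which drives cargo into cilia. Kif3a read 5.72, 5.52 and 5.58 in KO pools and 5.84, 5.65 and 5.53 in WT pools, a difference of -0.07 (SE 0.14, adjusted p = 0.860). Kif3b read 5.99, 5.89 and 5.77 in KO pools and 5.92, 5.73 and 5.60 in WT pools, a difference of 0.13 (SE 0.14, adjusted p = 0.694). Both were Present on all 6 arrays and their groups overlapped. Kif13a and Kif13b, which carry membrane proteins, differed by -0.06 (SE 0.13) and 0.06 (SE 0.10), and Kif16b, a motor of early endosomes, by 0.29 (SE 0.14, adjusted p = 0.299). For these 5 genes the standard errors are at most 0.14, against 0.20 to 0.36 for Kif11, Kif20a, Kif20b and Kif23. The classes were not divided by this, since the mitotic Kif22 had 0.13 and the transport kinesin Kif5a 0.22.

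Kif5a, a conventional kinesin heavy chain best known in neurons, was the tested transport kinesin with the widest spread. It read 5.57, 5.92 and 6.73 in KO pools, where pool 3 alone was called Present, against 6.60, 6.81 and 6.20 in WT pools, all Present (difference -0.46, SE 0.22, adjusted p = 0.287). KO pool 3 lay with the WT pools. The probe set carries the suffix _s_at, which marks probes shared by related transcripts. Without KO pool 3 the difference was -0.79, with an adjusted p of 0.0104. The 4 transport kinesins that were not tested, Kif1a, Kif3c, Kif5c and Kif17, were Present on at most 1 array each, and their groups overlapped. Of 6 neuronal and glial markers, Snap25, Gfap and Mbp were Absent on all 6 arrays and Map2 was Present on 1. Syt1 was Present on all 6, with every KO pool below every WT pool (difference -0.28, SE 0.10, adjusted p = 0.119), and Rbfox3 was Present on all 6 as well, with overlapping groups (difference 0.14, SE 0.20, adjusted p = 0.779). Their part in the Kif5a values was not tested.

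**Figure D4:**
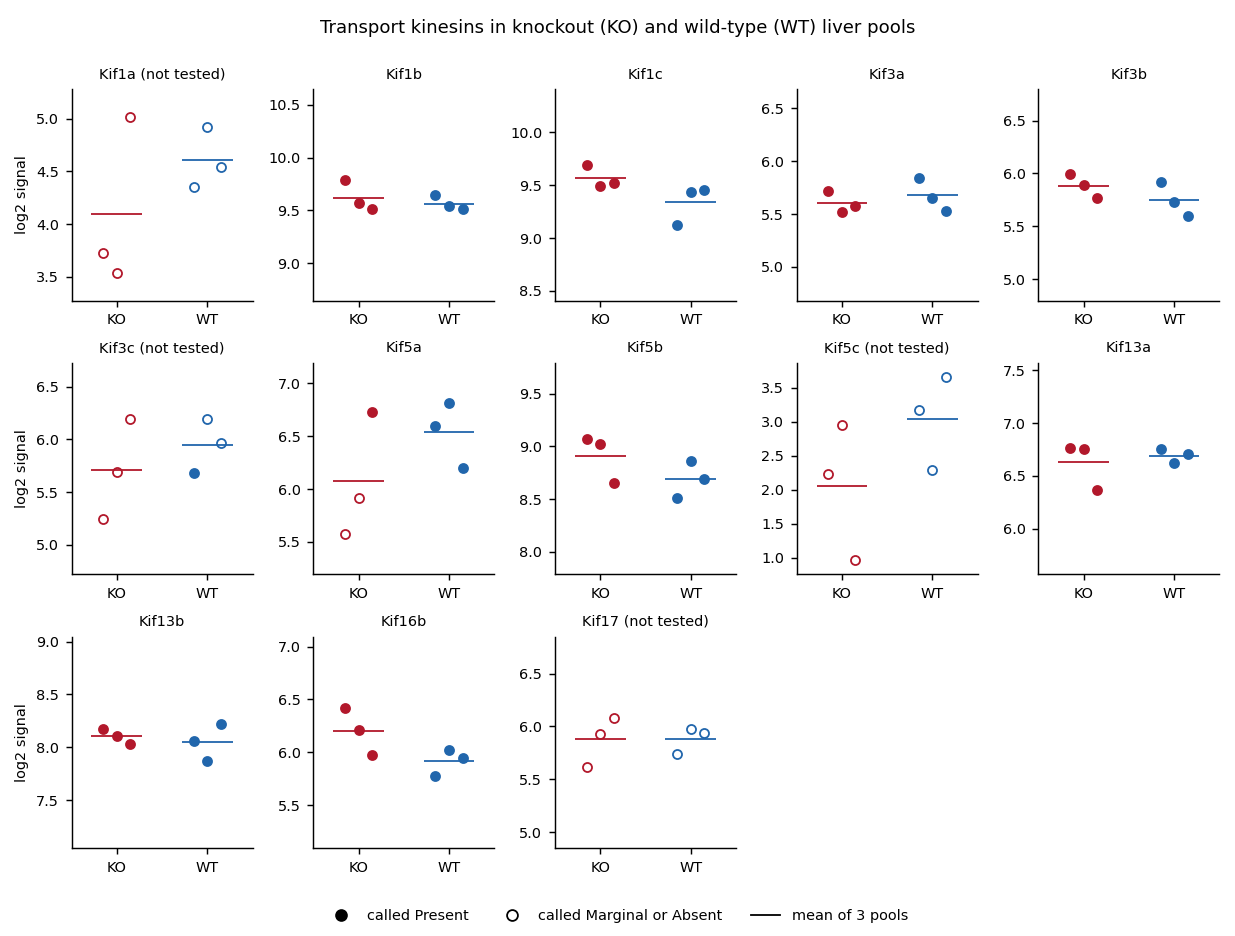
Log2 signal of the 13 transport kinesins in each pool of KO (red, left) and WT (blue, right) liver, drawn with the same conventions and axis rule as the plot of mitotic kinesins. KO and WT pools overlap in all panels except Kif1c, and Kif5a shows KO pool 3 beside the WT pools.

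Among the 12 kinesins with other roles, 4 were tested and 0 were called. Kif2a, a microtubule depolymeriser of both spindles and resting cells, read 6.65, 6.84 and 6.24 in KO pools and 6.75, 6.45 and 6.53 in WT pools, a difference of 0.00 (SE 0.15, adjusted p = 0.998). Kif21a, a regulator of microtubule growth, differed by 0.17 (SE 0.10, adjusted p = 0.427) and its relative Kif21b by -0.27 (SE 0.17, adjusted p = 0.447). Kif12, known from kidney and bile duct epithelium, differed by 0.30 (SE 0.20, adjusted p = 0.489). Kif24, which acts at centrioles and restrains the growth of cilia, was not tested but read 4.02, 4.25 and 4.19 in KO pools, all Absent, and 5.05, 4.96 and 4.95 in WT pools, of which 2 were Present. The WT mean was 1.78-fold the KO mean, a ratio that also rests on KO signals called Absent, and without the filter its adjusted p was 0.0569. Its window was the only kinesin window with TTCGAA, at 26 bases before the start. The other 7, Kif6, Kif7, Kif9, Kif26a, Kif26b, Kif27 and Kif28, were Present on at most 2 arrays each and their groups overlapped.

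Some calls depended on single pools. Of the 5 genes that fell, KO pool 3 was the lowest KO pool in 4. Without KO pool 1, the pool that stood apart at Eif2s3y, the same 5 members were called and no other. Without KO pool 3 the called members were Kif2c, Kif11, Kif20a, Kif20b and Kif22, which were lower, with Kif5a lower and Kif5b higher. Without WT pool 1 only Kif20a and Kif22 of all members were called, and the number of called probe sets was 639, against 1277 with all pools and 3010 without KO pool 3. In the authors' deposited table, 0 of the 99 probe sets of kinesin genes had a corrected p below 0.05, and 15 had a p below 0.05 before correction, 14 of them down in KO. The share over all probe sets was not counted. Several of the 14 belong to the same gene, as for Kif11 and Kif22, and probe sets of Kif1b, Kif2a and Kif24 are among them. The brightest probe set of Kif20b had an uncorrected p of 0.0748 in the authors' test. The smallest corrected p there was 0.129, for Kif24.

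Genes listed as spindle partners fell as well. The list was chosen with earlier results of these data known, so it is not independent of the fall of the mitotic kinesins. It also holds general genes of dividing cells, such as Mki67, Top2a and Cdk1. Of 20 tested spindle partners, 18 fell and 0 rose, with a median log2 difference of -1.34. The shares over all tested genes were 3.87% that fell and 3.38% that rose. Prc1, which bundles midzone microtubules and recruits Kif4, averaged 5.64 in KO and 6.96 in WT pools and fell by 1.32 (SE 0.15, adjusted p = 1.41e-05). Kntc1, a kinetochore protein of the spindle checkpoint, fell by 1.56 (SE 0.16, adjusted p = 6.98e-06), and was Present on 1 of 3 KO and 2 of 3 WT arrays. Ckap5 and Numa1, chosen after their values were seen, were the 2 that did not pass, with -0.09 (adjusted p = 0.724) and 0.00 (adjusted p = 0.994). Tubulins, the track proteins, gave 3 falls in 8 tested genes, with Tubb5 down by 0.84 (SE 0.08, adjusted p = 2.79e-06), Tuba1a by 0.45 (SE 0.09, adjusted p = 0.00403) and Tubb4b by 0.37 (SE 0.10, adjusted p = 0.0319). Of 6 kinesins with other names, 3 had too few Present calls to be tested. These were Cenpe, a kinetochore motor, with means of 2.65 in KO and 4.10 in WT pools and overlapping groups, Kifc1, with 1.32 in KO and 3.88 in WT pools and no overlap, and Kifc5b, with 2.25 in KO and 1.44 in WT pools and overlapping groups. Kifc1 and Kifc5b were Present on 0 arrays. Without the filter the adjusted p was 0.239 for Cenpe, 0.0180 for Kifc1 and 0.753 for Kifc5b. Of the 3 that were tested, Kifc2, Kifc3 and Stard9, 0 were called.

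Partners of the transport kinesins and genes of the opposing motor gave 1 call in each list, beside the 3.38% of all tested genes that rose and the 3.87% that fell. Of 12 tested light chains and cargo adaptors, 1 rose and 0 fell. That gene was Klc4, a light chain that links conventional kinesin to cargo, with means of 9.11 in KO and 8.63 in WT pools (rise of 0.48, SE 0.09, adjusted p = 0.00232). Of 17 tested genes of cytoplasmic dynein and dynactin, which move cargo the other way, 0 rose and Dynll1, a light chain shared with other complexes, fell by 0.41 (SE 0.08, adjusted p = 0.00342). Of 19 tested genes of intraflagellar transport, for which kinesin-2 is the motor, 0 were called, with 12 below WT and a median of -0.04. At an unadjusted p below 0.05 there were 2 of these 19, with no share of all tested genes at that p counted. Their differences ran from -0.37 to 0.35.

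**Figure D5:**
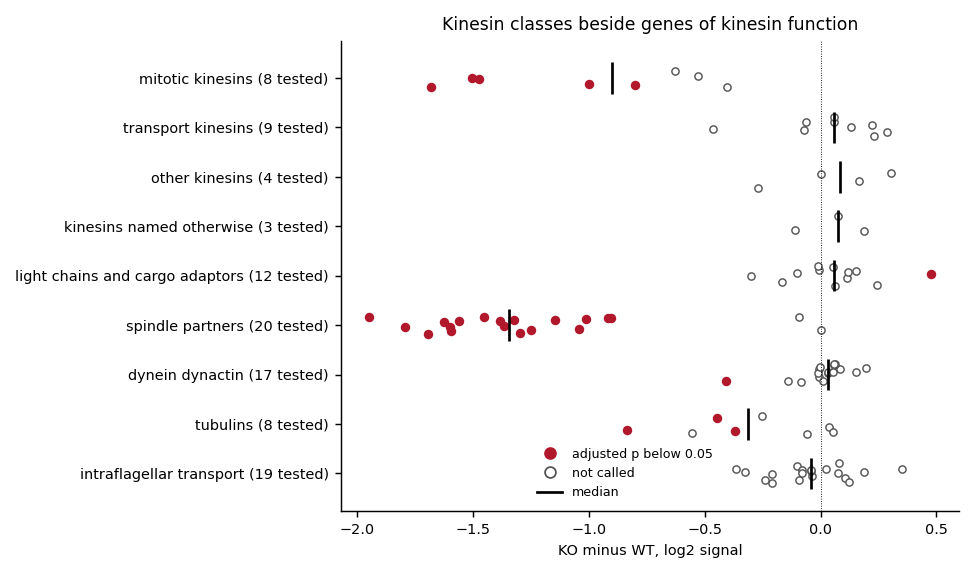
Log2 difference of KO and WT for each tested gene (points, filled where the adjusted p is below 0.05) of the kinesin classes and of 6 lists of genes of kinesin function, with a line for the median. Mitotic kinesins (median -0.90) and spindle partners (median -1.34) lie to the left, while transport kinesins (0.06), light chains and adaptors (0.06) and dynein and dynactin (0.03) lie around 0.

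Markers of cell types in the liver were set beside the fall of the mitotic kinesins. For scale, 3.87% of all tested genes fell and 3.38% rose. Counts of calls are over tested genes. Summed signals are linear and cover every gene of a list with a probe set of its own, tested or not. Hepatocyte markers gave 0 calls in 7 tested genes, and erythroid markers 1 rise (Tfrc) and 0 falls in 6, with Ermap, Slc4a1, Rhag and the probe sets of Hba-a1 and Hbb-b2 alone Present on 0 arrays. Another 4 probe sets, each shared by several adult globin genes and added after their values were seen, were Present on all 6 arrays. In each of the 4 all KO pools lay below all WT pools, and 2 fell, with differences of -0.40 to -0.13 over the 4 (adjusted p = 0.00556 to 0.0815). Such a separation was seen in 10.4% of all genes. Endothelial markers gave 2 falls in 8 tested genes, with summed signals of 5005 to 5221 in KO pools and 5516 to 5656 in WT pools. Stellate and fibroblast markers gave 4 falls and 1 rise in 9, with summed signals of 9795 to 10513 in KO pools and 10854 to 10961 in WT pools, and Des Present on 0 arrays. Cholangiocyte markers gave 1 fall (Prom1) in 3, with 413 to 518 in KO pools and 658 to 845 in WT pools, and Krt7 and Cftr Present on 0 arrays. Neutrophil markers gave 2 rises in 4, with 573 to 647 in KO pools and 488 to 557 in WT pools. Kupffer cell markers gave 1 fall (Marco) in 8 and lymphocyte markers 0 calls in 3, with overlapping summed signals in both. The part of these cell types in the fall of the mitotic kinesins was not tested.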

How the data were processed

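Liver RNA of 3 KO and 3 WT pools was measured on Affymetrix arrays. Per the labels, the authors computed signals with MAS5; its version and scaling target are unknown here. The deposited workbook lists 45101 probe sets with log2 signals per array, a detection call and its p-value. It also holds the authors' own test of KO against WT, as a p-value, a p-value after correction, a direction and a fold change of at least 1. The deposited series matrix repeats the log2 signals.

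No pseudocount was added to the deposited log2 signals. After removal of 64 control probe sets, those Present on 3 or more of the 6 arrays were tested (22482 probe sets). Dim MAS5 signals vary widely on the log2 scale, and only 6 arrays bear on each value, which limits its precision. The comparison of KO with WT used lmFit and eBayes of limma 3.58.1, allowing for an intensity trend, in R 4.3.3. P-values were adjusted by Benjamini-Hochberg over all tested probe sets and called below 0.05. The fit was tested on simulated data. Tables were made in Python 3.11.15.

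Symbols came from the platform annotation, in which 34958 probe sets have 1 symbol, 932 have several and 9211 have none. A single symbol was required, so 1 probe set shared by Kif27 and another gene was left out. All 37 kinesin genes matched RefSeq by Entrez number. Called members are described in full and the others in brief, with up to 5 genes of smallest p considered from each further list. The members, their classes and the lists were chosen with earlier results of these data known. Protein sequences were not used here. Alternatives were other detection filters, a pseudocount of 16, quantile normalization, centring of arrays on the median, a variance model with no trend, pool number as a block, averaging the probe sets of a gene, and leaving out each pool.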

Additional observations from a re-analysis of the deposited data

How the results depend on the processing

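The calls rest on 3 pools per genotype, and of the 5 called members Kif11 and Kif22 were Present on all 6 arrays. Kif22 was called in all 14 alternatives, Kif11 in 13 of 14, Kif20a in 12 of 13, Kif20b in 9 of 13 and Kif23 in 5 of 13, where Kif20a, Kif20b and Kif23 were not tested among probe sets Present on all 6 arrays. Of all members and of the mitotic ones, 5 and 5 were called with all pools, 3 and 3 without a detection filter, 2 and 2 among probe sets Present on all 6 arrays, 3 and 3 with quantile normalization and 2 and 2 without the intensity trend, which also gave 378 changed probe sets against 1277. The mitotic median was -0.55 with a pseudocount of 16, -0.64 without the filter and -1.25 among probe sets Present on all 6 arrays, and the gap to the transport median was -0.60, -0.63 and -1.35. The transport median changed sign without the filter, at -0.0069, where 4 genes with too few Present calls are added. Leaving out 1 pool gave 639 to 3010 changed probe sets and 2 to 7 called members, both lowest without WT pool 1 and highest without KO pool 3, with 2 to 5 mitotic and 0 to 2 transport kinesins among them. Over the same 6 fits the gap between the medians ran from -1.07 to -0.89. With the pool number as a replicate block the same 5 members were called and 1370 probe sets changed. The numbers share no stated origin, same-numbered pools had correlated deviations of -0.08 to -0.01, and 0 of 3 KO pools correlated best with the WT pool of its number. Except where stated, the cause of these changes was not tested.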
